A study of Homo sapiens with 12 samples.

Results

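Interferon-stimulated genes are described here one by one in the alveolar rhabdomyosarcoma (ARMS) cell line Rh30. A fixed list of 39 symbols was looked up by exact gene name among the gene probes of the array, and all 39 were found, of 30238 gene or transcript names in all. They were measured by 55 probes, and the brightest probe stood for a gene measured by several. The 3 Rh30 cultures were compared on 12 Agilent arrays, each of which took a pair of RNAs labeled with Cy3 and Cy5. They were the untransfected parental cells (WT), a clone stably carrying a control non-targeting shRNA (CON), and a clone stably carrying an shRNA against PAX3-FKHR (KD1). PAX3-FKHR is the fusion transcription factor of ARMS, and all 3 cultures descend from the same fusion-positive line. CON and KD1 are 1 clone each and were kept in puromycin (1 μg/mL), which WT did not receive, so that clone and shRNA cannot be told apart, nor, against WT, the drug. RNA was taken 24 h after plating, in 2 biological replicates. Each of the 6 RNA extracts was on 4 arrays, and each pair of extracts was hybridized as a dye-swap pair.

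Type I and type III interferons are secreted when a cell's sensors find viral or misplaced nucleic acid. Through JAK kinases they activate STAT and IRF factors, which bind an interferon-stimulated response element (ISRE) in the promoters of many genes whose products block viral RNA, viral entry and translation. Interferon regulatory factors can also act on part of these genes directly, without secreted interferon.

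The arrays of the WT vs CON comparison shared 1 slide, whereas the KD1 arrays of replicate 1 filled a second slide and those of replicate 2 a further one. In KD1, replicate and slide therefore cannot be told apart, while both extracts of CON and of WT met on the same slide. The muscle lineage markers MYOD1, DES, CDH15, CHRNA1 and FGFR4 were well above background, by the flag in the scanner files, in all 24 channels, as were MYOG, MYF5 and PAX3, and the pan-leukocyte marker PTPRC in 0 of 24. MYOG, a late myogenic factor, was lower in WT than in CON (-1.96 and -1.49, limma adjusted p = 0.019) and read -1.35 and -0.92 in KD1 vs CON (adjusted p = 0.051). MYF5, an early one, read 1.84 and 1.33 for WT against CON and -1.42 and -2.42 for KD1 against WT (adjusted p = 0.096 and 0.069). Among the other leukocyte markers, CD68 was higher in KD1 than in CON (1.30 and 1.79 on the log2 scale in the 2 replicates, limma adjusted p = 0.022), and the part of these markers in the results below was not tested. On the brightest PAX3 probe, KD1 differed from CON by -0.39 and -0.46 and from WT by -0.45 and -0.33. The FOXO1 (FKHR) probe gave -0.26 and -0.58 against CON and -0.79 and -0.41 against WT. Neither gene passed the test (adjusted p = 0.327 and 0.432 against CON), and no probe for the fusion itself was used.

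The promoters of 4 members are shown because their genes behaved in 3 different ways below. IFIT1 and ISG15 were far apart between the replicates, IFIT5 stayed nearly level, and HERC5 was lower in KD1 than in CON. Each line gives the 150 bases before the transcription start (RefSeq, GRCh38.p14, plus strand), 5′ to 3′, with matches to the ISRE core in capitals. The core was searched on both strands as GAAANNGAAA, and overlapping matches were allowed.
IFIT1: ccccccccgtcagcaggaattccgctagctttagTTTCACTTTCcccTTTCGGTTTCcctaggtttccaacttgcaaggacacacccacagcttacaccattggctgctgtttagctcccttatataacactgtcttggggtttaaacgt
IFIT5: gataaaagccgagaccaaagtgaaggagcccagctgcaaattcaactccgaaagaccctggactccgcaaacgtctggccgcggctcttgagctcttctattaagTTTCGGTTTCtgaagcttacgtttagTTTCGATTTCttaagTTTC
ISG15: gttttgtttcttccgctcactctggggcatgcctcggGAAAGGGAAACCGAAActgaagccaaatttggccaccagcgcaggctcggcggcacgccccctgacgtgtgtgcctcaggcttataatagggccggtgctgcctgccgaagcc
HERC5: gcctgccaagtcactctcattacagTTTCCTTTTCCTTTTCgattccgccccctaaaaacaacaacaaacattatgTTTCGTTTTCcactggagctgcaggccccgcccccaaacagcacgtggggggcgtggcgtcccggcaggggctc
The windows lie at chr10:89392473-89392622 (IFIT1), chr10:89414418-89414567 (IFIT5), chr1:1013347-1013496 (ISG15) and chr4:88456969-88457118 (HERC5). IFIT1 holds 2 matches that start 116 and 103 bases before the transcription start. ISG15 holds 2 overlapping matches, at 113 and 107 bases, and HERC5 holds 3, at 125, 119 and 74 bases. IFIT5 holds 3, at 45, 19 and 4 bases, and the last of them runs past the end of the printed stretch. A promoter window of 250 bases before and 50 after the start was given for 29 of the 39 members. The core was found in 18 of these 29 (62.1%), against 4.38% of the 27305 genes with a window. The palindromic GAS motif, TTCNNNGAA, was found in 8 of the 29 (27.6%), against 9.38% of all genes. A match is a description of letters and not of a bound site.

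**Figure D1:**
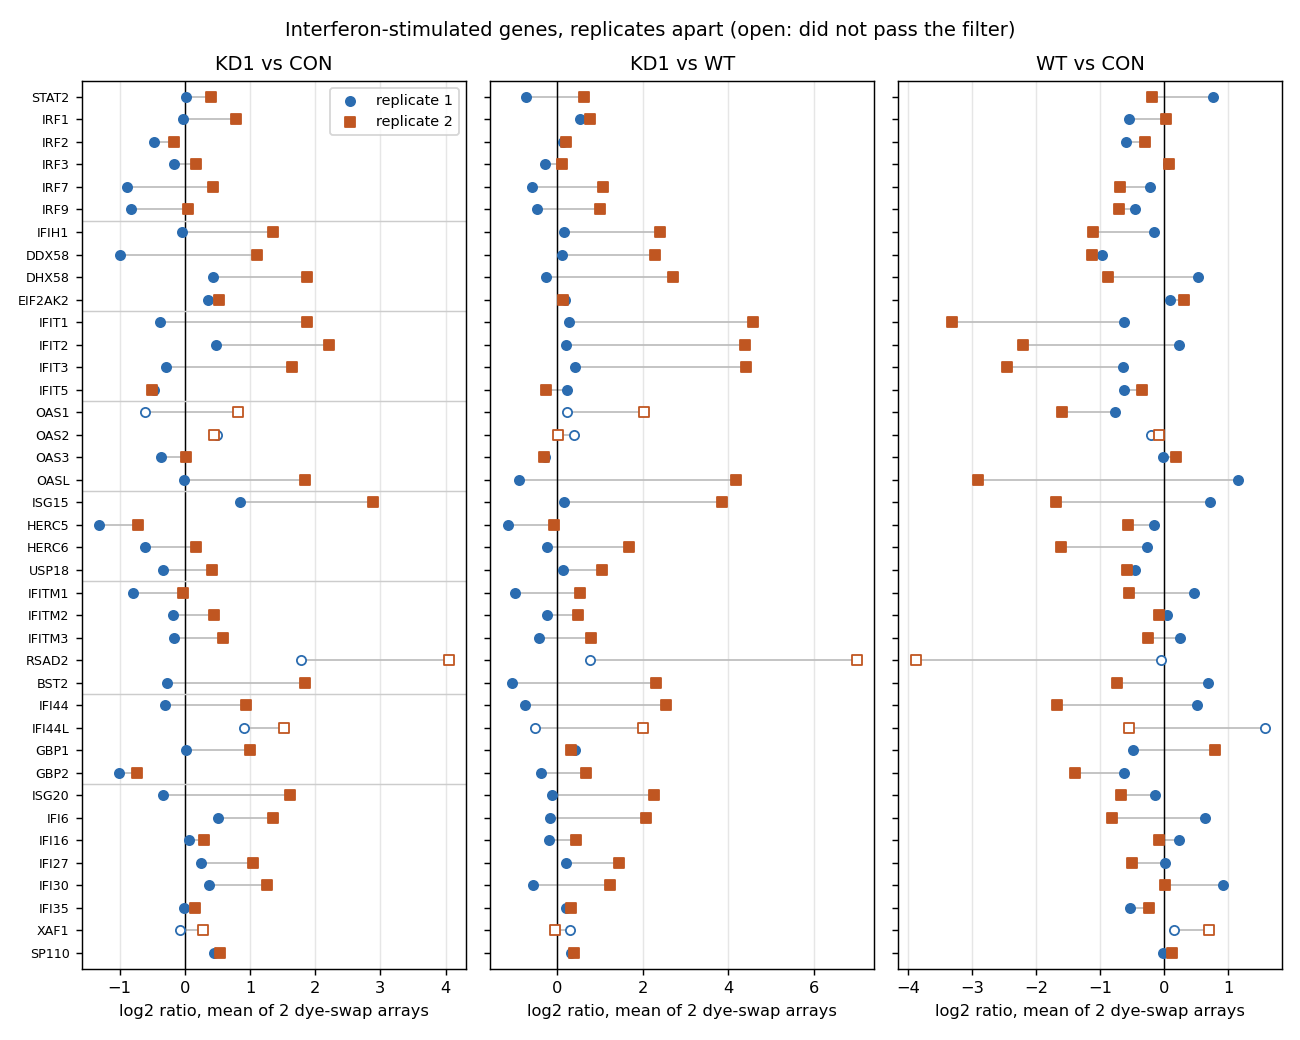
Log2 ratios of the 39 members in KD1 vs CON, KD1 vs WT and WT vs CON, each point the mean of the 2 dye-swap arrays of 1 replicate and grey lines joining the replicates. Genes are ordered by role, and open symbols did not pass the filter; replicate 2 reaches 4.58 for IFIT1 in KD1 vs WT, where replicate 1 is at 0.26.

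The differences between cultures depended on the replicate. In replicate 1 the members went both ways, with a median log2 ratio over all 39 of -0.16 for KD1 against CON, -0.11 for KD1 against WT and -0.01 for WT against CON. In replicate 2 the medians were 0.58, 1.04 and -0.56. All genes that passed the filter had medians between -0.06 and 0.05 in both replicates of the 3 comparisons. To pass the filter, a probe had to exceed 99% of the negative-control spots on all 4 arrays, in 1 channel or both. In the 3 comparisons 34, 34 and 35 members passed it. OAS2, IFI44L, RSAD2 and XAF1 passed in none of the comparisons, and OAS1 only in WT vs CON.

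In replicate 2, KD1 exceeded CON by 2-fold or more, with both arrays above 0, for 13 of the 34 members (38.2%), against 3.70% of all genes. The same count in replicate 1 was 0, against 1.68% of all genes. KD1 exceeded WT by this measure for 17 of 34 members in replicate 2, against 5.25% of all genes, and for 0 in replicate 1, against 2.16%. WT fell short of CON by as much for 11 of 35 members (31.4%) in replicate 2, against 3.81% of all genes, and for 0 in replicate 1, against 2.87%. The 11 include OAS1, which passed the filter through CON and was near background in WT. The arrays measured bulk RNA, so that more responding cells and more RNA per cell cannot be told apart. These comparisons share extracts, and within a replicate they are 3 views of the same 3 RNAs.

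With both replicates in the fit, 0 members passed limma's test (Benjamini-Hochberg adjusted p under 0.05 over all probes tested) in any of the 3 comparisons. Of all genes, 1.91% passed for KD1 against CON, 1.17% for KD1 against WT and 1.49% for WT against CON. At an unadjusted p under 0.05 the members numbered 5, 8 and 2, against 17.3%, 17.3% and 16.6% of all genes. The lowest adjusted p values were 0.122 for HERC5 in KD1 vs CON, 0.178 for IFIT3 (KD1 against WT) and 0.143 for GBP2 (WT against CON). A mean of at least 2-fold with the same sign on all 4 arrays was reached by 3 members higher in KD1 than CON (ISG15, IFIT2 and DHX58), against 2.08% of all genes, and by 1 lower (HERC5), against 2.18%. In KD1 vs WT this held for 4 higher (IFIT1, IFIT2, IFIT3 and ISG15), against 2.07%, and 0 lower, against 2.61%. In WT vs CON it held for 5 lower (IFIT1, IFIT3, OAS1, DDX58 and GBP2), against 2.16%, and 0 higher, against 2.56%. OAS1 passed the filter there through CON, since it was near background in WT. Left to 1 replicate, the counts in either direction were 13 or 2 for KD1 against CON, 17 or 2 for KD1 against WT and 11 or 1 for WT against CON, the larger value always being that of replicate 2.

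**Figure D2:**
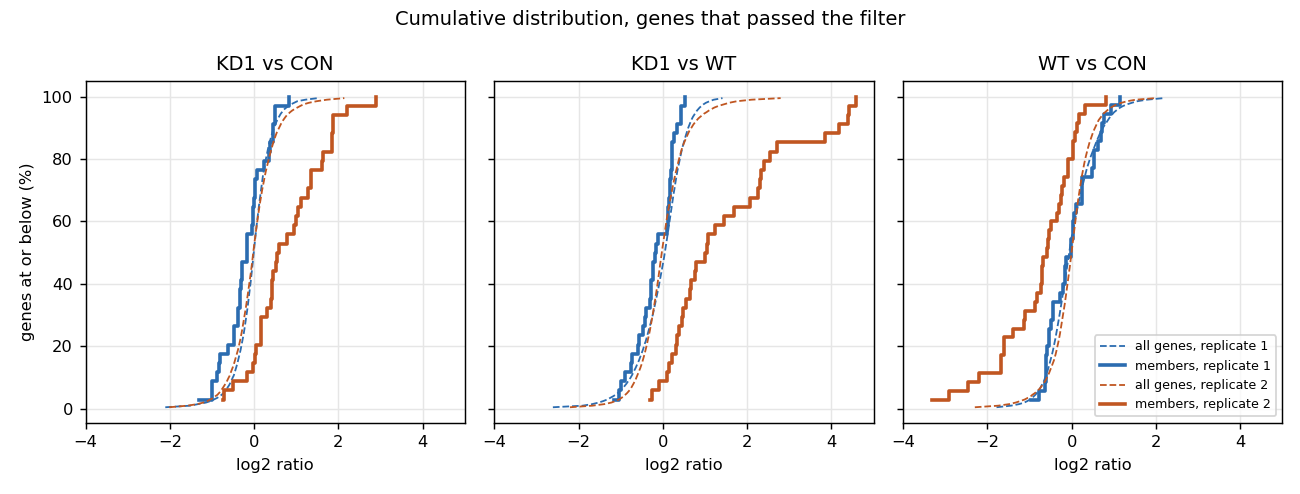
Cumulative share of genes (%) at or below each log2 ratio, for the members that passed the filter (solid steps) and all genes that passed (dashed), by replicate. In replicate 2 the members lie to the right of all genes in both KD1 comparisons and to the left in WT vs CON. In replicate 1 their curves lie to the left over much of the negative range. In WT vs CON of replicate 1 they lie to the right over much of the positive range.

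Dye-swapped arrays of 1 extract pair differed far less than the replicates did. For the members that passed the filter, the median absolute difference between the 2 arrays of a pair was 0.13 to 0.36 on the log2 scale, with a largest value of 1.09 (ISG15, KD1 vs WT, replicate 2). Between replicates, the median absolute difference was 0.81 for KD1 against CON, 1.41 for KD1 against WT and 0.57 for WT against CON, with a largest value of 5.08 (OASL, KD1 vs WT).

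The 6 transcription factors had replicate 2 medians of 0.29 for KD1 against CON and 0.70 for KD1 against WT, beside 1.76 and 4.40 for the 4 IFIT genes. STAT2 and IRF9 are parts of the complex that binds the ISRE, and IRF7 amplifies interferon production. STAT2 in KD1 vs WT was -0.85 and -0.61 on the arrays of replicate 1 and 0.37 and 0.91 on those of replicate 2. IRF7 in the same comparison was -0.73 and -0.46, then 1.12 and 1.04, and IRF9 -0.13 and -0.82, then 0.83 and 1.16. On these probes KD1 lay below WT in replicate 1 and above it in replicate 2. A second IRF7 probe, well above background in all 24 channels, gave 0.02 and 1.47. IRF1, a factor also induced by type II interferon, was higher in KD1 than in WT on all 4 arrays (0.46, 0.59, 0.59 and 0.92, limma adjusted p = 0.251). IRF2 opposes IRF1 at shared sites, and IRF3 is present in resting cells and activated by phosphorylation. On their brightest probes, both stayed between -0.60 and 0.21 in every replicate of the 3 comparisons. A second IRF2 probe, well above background in all 24 channels, gave -0.87 and -0.34 in WT vs CON.

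Among the cytosolic RNA sensors, DHX58 (LGP2), DDX58 (RIG-I, now RIGI) and IFIH1 (MDA5) differed between the replicates, and the kinase EIF2AK2 (PKR), which stops translation on double-stranded RNA, did so little. DHX58 in KD1 vs CON was 0.05 and 0.83 on the arrays of replicate 1 and 1.61 and 2.15 on those of replicate 2. Every array showed KD1 higher, with a mean of 1.16 ± 1.02 (SD, n = 2; limma adjusted p = 0.359). With normexp and loess the DHX58 mean was 0.55, below 2-fold. DDX58 read lower in WT than in CON by a similar amount in both replicates. WT vs CON gave -0.97 in replicate 1 and -1.13 in replicate 2, with all 4 arrays below 0, a mean of -1.05 ± 0.12 (SD, n = 2; adjusted p = 0.345). Against the same CON extracts KD1 was at -1.05 and -0.95, then at 0.92 and 1.29. The KD1 value thus crossed from below CON to above it. IFIH1 in KD1 vs WT gave 0.35 and -0.06, then 2.35 and 2.47. On its brightest probe, EIF2AK2 lay between 0.10 and 0.52 in all 6 replicate values. A second EIF2AK2 probe, well above background in all 24 channels, gave 0.50 and 0.87 in KD1 vs CON (limma adjusted p = 0.148).

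The IFIT genes, whose products bind viral RNA and hold back its translation, sit together on chromosome 10. Their probes lie, on NCBI36, at chr10:91153418-91153477 (IFIT1), chr10:91058377-91058436 (IFIT2), chr10:91089342-91089401 (IFIT3) and chr10:91169539-91169598 (IFIT5). IFIT1 in KD1 vs WT was 0.15 and 0.38 on the arrays of replicate 1 and 4.74 and 4.43 on those of replicate 2. In KD1 vs CON it was -0.49 and -0.26, then 1.81 and 1.94, and in WT vs CON -0.71 and -0.53, then -3.26 and -3.36. Thus KD1 was highest, CON intermediate and WT lowest in replicate 2, and CON was marginally highest in replicate 1. IFIT1 reached means of 2.42 ± 3.05 for KD1 against WT and -1.97 ± 1.90 for WT against CON (SD, n = 2; limma adjusted p = 0.225 and 0.313).

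IFIT2 in KD1 vs WT was 0.13 and 0.30 in replicate 1 and 4.42 and 4.35 in replicate 2, a mean of 2.30 ± 2.95 (SD, n = 2; limma adjusted p = 0.217). In KD1 vs CON all arrays had KD1 higher, at 0.41, 0.56, 2.06 and 2.35 (mean 1.34, adjusted p = 0.451). In WT vs CON, IFIT2 turned from 0.23 to -2.21 between the replicates. IFIT3 in KD1 vs WT was 0.33 and 0.51, then 3.98 and 4.87, a mean of 2.42 ± 2.83 (SD, n = 2; adjusted p = 0.178). WT lay below CON for IFIT3 on every array, at -0.79, -0.48, -2.60 and -2.32. In replicate 2 the 3 genes thus had the order KD1, CON, WT, while in replicate 1 CON was highest for IFIT1 and IFIT3 and lowest for IFIT2.

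IFIT5 did not share this pattern, although its promoter window holds 3 matches to the core. KD1 vs CON gave -0.46, -0.50, -0.48 and -0.52 on the 4 arrays (mean -0.49 ± 0.01, limma adjusted p = 0.278). KD1 vs WT gave 0.31 and 0.13, then -0.26 and -0.27. A second IFIT5 probe read 0.19 and 0.18 in KD1 vs WT, so its sign in replicate 2 was the opposite one.

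**Figure D3:**
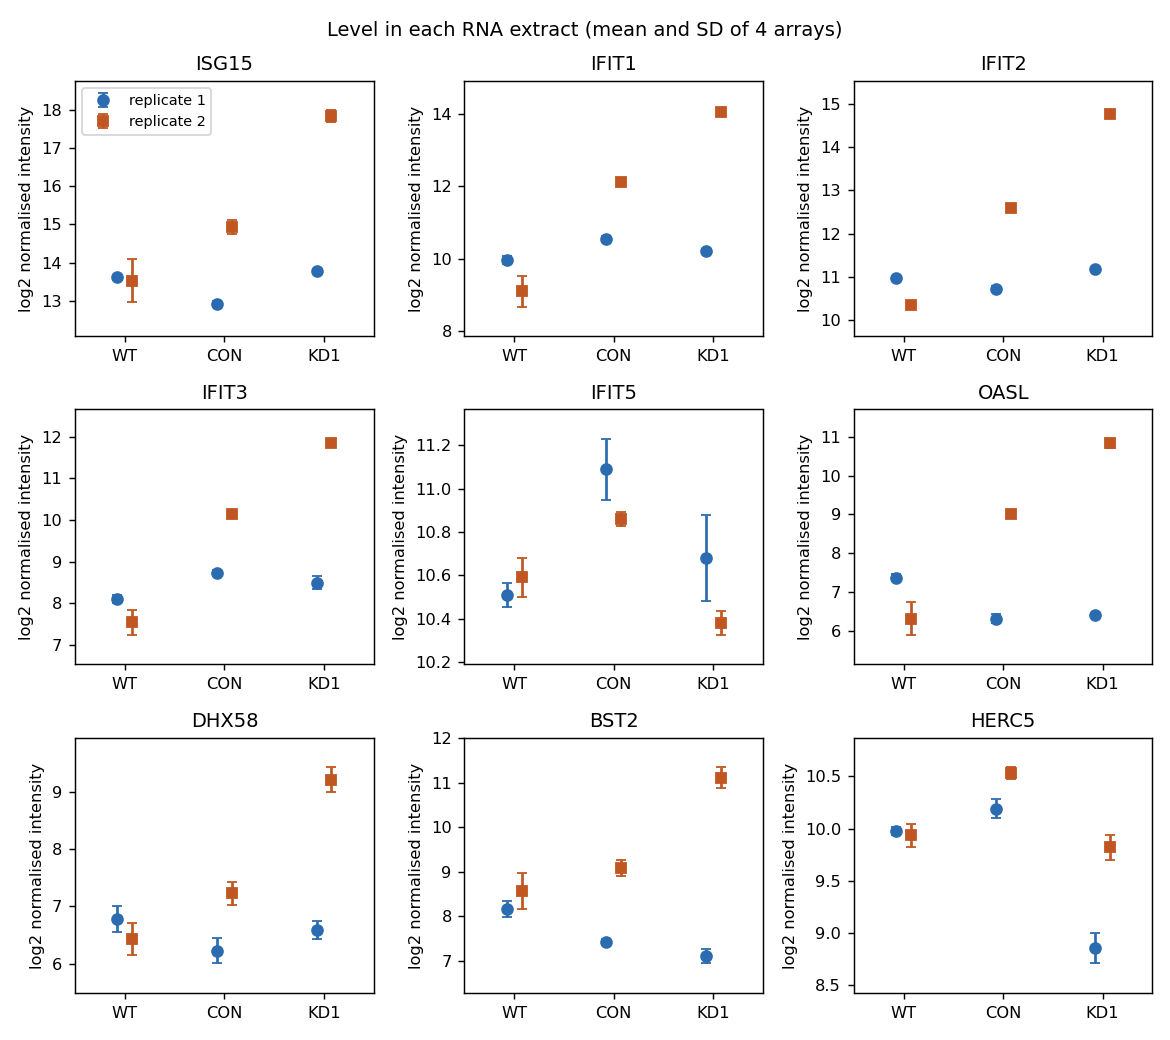
Log2 normalised intensity of 9 members in the 6 RNA extracts (mean and SD of the 4 arrays of each extract), with a separate vertical scale for each gene. For ISG15 the KD1 extract of replicate 2 stands at 17.9, above the other 5 extracts at 12.9 to 14.9, whereas HERC5 is lowest in the KD1 extract of replicate 1 (8.85).

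The OAS proteins make short oligoadenylates in response to double-stranded RNA, and OASL is an inactive relative that aids RIG-I. Among the members that passed the filter, OASL had the widest replicate difference in the comparisons with WT. In KD1 vs WT it was -0.91 and -0.89 on the arrays of replicate 1 and 4.60 and 3.77 on those of replicate 2. In WT vs CON it turned from 1.18 and 1.14 to -2.76 and -3.06, so that WT was the highest culture in replicate 1 and the lowest in replicate 2. OAS1 was dim, well above background in 5 of 8 KD1, 8 of 8 CON and 2 of 8 WT channels. WT lay below CON on all 4 arrays, at -0.63, -0.92, -1.73 and -1.47 (mean -1.19 ± 0.59, limma adjusted p = 0.226). In KD1 vs WT, where it was not tested, OAS1 read 0.38 and 0.06, then 1.83 and 2.24. With another background correction (normexp and loess), the OAS1 mean in WT vs CON was -0.09, so its 2-fold difference rests on the signal processing. OAS3 stayed between -0.37 and 0.18 in all 6 replicate values, and OAS2 was well above background in 4 of 8 channels of each culture.

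ISG15, a ubiquitin-like modifier, read higher in KD1 than in CON on every array. The values were 0.89 and 0.79 in replicate 1 and 2.90 and 2.87 in replicate 2, a mean of 1.86 ± 1.45 (SD, n = 2; limma adjusted p = 0.266). Against WT they were 0.08 and 0.24, then 4.40 and 3.31 (adjusted p = 0.248). ISG15 therefore differed in KD1 vs CON in both replicates, but in KD1 vs WT almost wholly in replicate 2. Its probe lies at chr1:939430-939489 (NCBI36).

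HERC5, the ligase that attaches ISG15 to proteins, went the other way. KD1 vs CON gave -1.33 and -1.28 in replicate 1 and -0.61 and -0.82 in replicate 2, a mean of -1.01 ± 0.42 (SD, n = 2; limma adjusted p = 0.122). In KD1 vs WT, HERC5 read -1.34 and -0.99, then -0.31 and 0.15, so the arrays of replicate 2 disagreed in sign. Its probe lies at chr4:89645912-89645971 and that of the related HERC6 at chr4:89583060-89583119 (NCBI36). Although HERC5 was below CON in both replicates, its level in the KD1 extracts went from 8.85 to 9.82 between replicates 1 and 2, a difference of 0.97. HERC6 in KD1 vs WT was -0.12 and -0.35, then 1.57 and 1.80. A second HERC6 probe, well above background in no channel, gave 0.51 and 0.63. USP18, the protease that removes ISG15 and restrains the receptor, was 0.19 and 0.07, then 1.21 and 0.86 in KD1 vs WT.

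Of the membrane and entry factors, BST2 (tetherin), which retains budding virions, and RSAD2 (viperin) differed most between replicates. BST2 in KD1 vs CON was -0.46 and -0.09, then 1.67 and 2.02, and in KD1 vs WT -1.29 and -0.82, then 1.90 and 2.74. KD1 was thus below both cultures in replicate 1 and above both in replicate 2. A second BST2 probe, above background in no channel, gave 0.08 and -0.17 in KD1 vs CON. RSAD2 did not pass the filter and was not tested. Its brightest probe was well above background in 7 of 8 KD1 channels, 5 of 8 CON channels and 2 of 8 WT channels. In KD1 vs CON it read 1.41 and 2.15, then 4.18 and 3.91, with 1 of 4 CON channels above background in replicate 1 and 4 of 4 in replicate 2. In WT it was above background in 1 of 4 channels of each replicate, so no size is given against WT beyond the levels of 10.3 in KD1 and 2.74 in WT for replicate 2. A second, dimmer RSAD2 probe gave -0.07 and 4.97 in KD1 vs CON, so the replicate 1 difference was seen on 1 probe only. The IFITM proteins, which block fusion of viral and cell membranes, were closer. In KD1 vs WT, IFITM1 went from -0.98 to 0.54, IFITM2 from -0.24 to 0.48 and IFITM3 from -0.43 to 0.78 between replicates 1 and 2.

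GBP1 and GBP2 are guanylate-binding GTPases that respond most to type II interferon, and they followed the IFIT genes in part. GBP2 was highest in CON: WT vs CON gave -0.55, -0.70, -1.26 and -1.53 (mean -1.01 ± 0.55, limma adjusted p = 0.143), and KD1 vs CON gave -0.97, -1.04, -0.57 and -0.88 (mean -0.87 ± 0.20, adjusted p = 0.175). GBP1 turned in WT vs CON from -0.53 and -0.44 to 0.71 and 0.90, opposite to most members, whereas KD1 vs CON gave -0.01 and 0.04, then 0.96 and 1.03. GBP2 in KD1 vs WT went from -0.39 to 0.67. IFI44 in KD1 vs WT gave -0.84 and -0.65, then 2.45 and 2.65. IFI44L, its dim neighbor, was well above background in 5 of 8 KD1, 3 of 8 CON and 4 of 8 WT channels and was not tested. In KD1 vs CON it read 1.07 and 1.96 in replicate 2, with 4 of 4 KD1 and 3 of 4 CON channels well above background. In replicate 1, 1 of 4 KD1 and 0 of 4 CON channels were, so no size is given there.

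The remaining members included ISG20, an exonuclease that degrades RNA, which in KD1 vs CON was -0.55 and -0.12, then 1.47 and 1.76. IFI6, a small protein that protects cells from death, was higher in KD1 than in CON on every array, at 0.48, 0.53, 1.36 and 1.36 (mean 0.93 ± 0.60, limma adjusted p = 0.359). IFI27 and IFI30, the latter a lysosomal thiol reductase, showed the same sign on all 4 arrays of that comparison, with means of 0.64 and 0.82. SP110, a nuclear body protein, differed by a similar small amount in both replicates, at 0.45 and 0.54 in KD1 vs CON (adjusted p = 0.238). The DNA sensor IFI16 and IFI35 stayed between -0.54 and 0.44 in all replicate values, and XAF1 was too dim to pass the filter.

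Levels of the 6 extracts were read from separate-channel intensities on the log2 scale, gene by gene. Of the 39 members, 29 had their highest level in the KD1 extract of replicate 2, among them 26 of the 34 that passed the filter in all comparisons, against 18.7% of 15706 genes that did. IFIT1 read 10.2 and 14.1 in the KD1 extracts of replicates 1 and 2, 10.55 and 12.13 in those of CON, and 9.95 and 9.10 in those of WT. ISG15 read 13.8 and 17.9 in KD1, 12.9 and 14.9 in CON, and 13.6 and 13.5 in WT. DHX58 read 6.58 and 9.21 in KD1, 6.23 and 7.23 in CON, and 6.79 and 6.43 in WT. In each of the 3 genes the difference between the 2 extracts was largest in KD1, smaller in CON, and smallest in size, and below 0, in WT.

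The 2 KD1 extracts differed by a median of 1.14 over the members, replicate 2 being the higher in 34 of 39. In CON the median was 0.39, with replicate 2 higher in 30, and in WT it was -0.09, with replicate 2 higher in 16. All genes had medians of -0.03, -0.01 and 0.02, with replicate 2 higher in 46.6%, 47.9% and 52.1% of them. The KD1 extract of replicate 2 was at least 2-fold above that of replicate 1 for 19 of 34 members that passed the filter (55.9%), against 3.64% of all genes. In CON the count was 8 of 34 (23.5%), against 1.58%, and in WT it was 0 of 34, against 0.866%. With 2 extracts per culture these are descriptions and carry no test. On the slide that held both CON and both WT extracts, the counts for these cultures were also 8 and 0. On that slide alone, IFIT1 differed by 1.52 in CON and by -1.17 in WT, and OASL by 2.72 and -1.34.

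**Figure D4:**
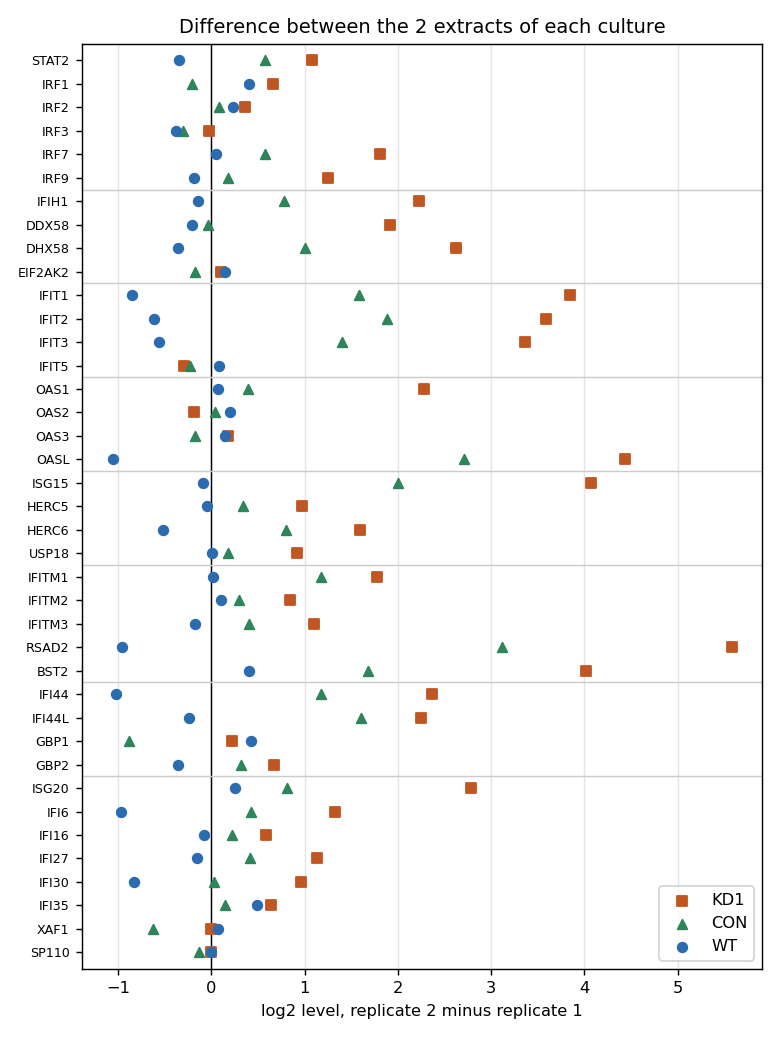
Log2 level in the extract of replicate 2 minus that of replicate 1 for each member, in KD1, CON and WT, grouped by role. KD1 lies furthest to the right for most members, up to 5.58 for RSAD2, while IFIT5, OAS2, OAS3, IRF3, EIF2AK2, GBP1, XAF1 and SP110 lie between -0.30 and 0.22 in KD1.

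The order KD1 above CON above WT was found in 22 of the 34 members that passed the filter in all comparisons in replicate 2, against 17.4% of genes, and in 0 of them in replicate 1, against 21.0%. The difference between WT and CON could also be read from the KD1 arrays, as KD1 vs CON minus KD1 vs WT, on other slides. For IFIT1 in replicate 2 this gave -2.70, beside -3.31 measured directly, and for OASL -2.34 beside -2.91. In replicate 1 the same pairs were -0.64 beside -0.62 and 0.90 beside 1.16. For these 2 genes, the WT vs CON difference of replicate 2 was thus present on both slides that carried those extracts.

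Set beside the promoter windows, the 18 members with a core match had a median difference between the KD1 extracts of 2.00, from -0.30 (IFIT5) to 5.58 (RSAD2). The 11 members with a window and no match had a median of 0.96, from -0.01 (SP110) to 2.28 (OAS1). The 10 members without a window had a median of 0.88. The ranges overlapped widely.

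Other genes of the pathway, from a list of 68, gave no calls. Of these, 66 were on the array under their own or an older name, and 39, 41 and 46 passed the filter in the 3 comparisons, in the order used above. In limma's fit, 0 passed in any comparison, against 1.91%, 1.17% and 1.49% of all genes. At an unadjusted p under 0.05 there were 4, 2 and 5, against 17.3%, 17.3% and 16.6%. In replicate 2 the medians of the 66 were 0.03, 0.14 and -0.06. Of those that passed the filter, 1, 6 and 1 were at least 2-fold higher in the first-named culture. For KD1 against CON and WT, 3.70% and 5.25% of all genes were so, with both arrays above 0. In WT vs CON, 97% of all genes lay at or below 1.00. Of the 9 interferon genes, 6 were well above background in no channel, IL28A was so in 8 of 8 channels of every culture, and IL29 in 2 or 3 of 8. IFNB1 was well above background in 1 of 8 KD1 channels and in 0 of CON and WT. The receptor chain IFNAR1 read 0.50 and -0.30 in KD1 vs CON, and the kinases JAK1, JAK2 and TYK2 lay between -0.07 and 0.50.

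SOCS3, an inhibitor of JAK signaling, was lower in KD1 than in CON by -1.05 and -2.08 and than in WT by -0.66 and -1.98 (adjusted p = 0.059 and 0.114).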

How the data were processed

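Members, gene lists and tests were chosen with earlier results of these data known. Per the submitters' processing notes, images were quantified in Agilent Feature Extraction 10.5.1.1, and the authors deposited, per spot, linear intensity values, among them processed signals that were background-subtracted and lowess-normalized within the array. A deposited series table by the authors holds the same ratios on the log2 scale, and the deposited intensity headers give probe positions on NCBI36. Log2 ratios were formed from these processed values with the first-named culture on top, and averaged over spots not marked as outliers (95 to 188 spots per array left out) and over both dye orientations. Saturated spots numbered 0, and 0 columns of the series table were left without a sample. At least 71.1% of spots in Cy3 and 64.4% in Cy5 were well above background on each array. Precision is limited by how few arrays there are.

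Tests were run in R 4.3.3 with the limma package, version 3.58.1, by lmFit and eBayes over 6 replicate ratios with 1 coefficient per comparison and 2 residual degrees of freedom, since 3 extracts supply all 3 ratios of a replicate. P values were adjusted by Benjamini-Hochberg over 21937, 24884 and 26595 probes that passed the filter in KD1 vs CON, KD1 vs WT and WT vs CON, with a threshold of 0.05. The labels call the replicates biological, without saying how the cultures were separated, so p values measure the spread between these 2. The fit was also run on simulated data, and the outcome is not reported here. Values on single arrays are given for members with a mean of at least 2-fold and the same sign on all 4 arrays of a comparison, and for their relatives by role. Levels of extracts are separate-channel log2 intensities after normalization within and between arrays (Aquantile). Alternatives were normexp with an offset of 50 and loess, median centring, the series table, the mean of all probes, no filter and a stricter filter. Further ones were all 12 arrays with dye effects, a replicate block, separate channels without pairing of the extracts, and leaving out each replicate. Promoters came from a RefSeq table of GRCh38.p14, by symbol or synonym, and Python 3.11.15 with pandas 2.3.3, numpy 2.4.6 and matplotlib 3.10.9 was used.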

Additional observations from a re-analysis of the deposited data

How the results depend on the processing

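The number of members past limma's threshold was 0 in each comparison under the 9 alternatives with a limma fit (leaving out a replicate gave values only), except that of all 12 arrays with slide dye effects, which counts dye-swapped arrays of the same extracts as separate. It gave 5 members for KD1 against CON (IFIT5, EIF2AK2, HERC5, SP110 and GBP2), 1 in KD1 vs WT (SP110) and 3 in WT vs CON (IFIT5, IRF2 and GBP2), beside 18.3%, 17.1% and 16.2% of all genes. With normexp and loess, fewer members were past 2-fold with the same sign on every array. They numbered 2 for KD1 against CON, 1 for KD1 against WT and 2 for WT against CON. Shares of all genes under this setting are not given here, and the cause was not tested. Leaving out a replicate moved these counts between 2 and 13, between 2 and 17 and between 1 and 11. The medians over the members ranged, when 1 replicate was left out, from -0.16 to 0.58, from -0.11 to 1.04 and from -0.56 to -0.01, so that both KD1 medians turned negative without replicate 2. The other alternatives kept the sign of the 3 medians. Of the 13 gene means named for their size, 5 fell below 2-fold with normexp and loess, namely DHX58 (0.55) and HERC5 (-0.85) in KD1 vs CON and OAS1 (-0.09), DDX58 (-0.85) and GBP2 (-0.91) in WT vs CON. Median centring and the mean of all probes left all 13 past 2-fold. With the replicate block, HERC5 in KD1 vs CON was at -0.999, just below 2-fold. With separate channels, GBP2 in WT vs CON was at -0.95. No sign turned under any of these settings. An indirect WT vs CON median from the KD1 arrays, an alternative chosen after seeing the data along with the restriction to 1 slide, was -0.19.

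The 6 extracts with the replicate number as a block gave medians of 0.32, 0.39 and -0.32 and 0 members past the threshold in each comparison. Extracts of equal number were paired in the main fit, because they were hybridized together on the same arrays. Only 1 of 3 pairs of cultures deviated together over 21870 probes. Deviations from the group means correlated by 0.54 between KD1 and CON, -0.07 between KD1 and WT and -0.02 between WT and CON. With 2 extracts per culture the replicate differences widen every error given here, and OAS1, OAS2, IFI44L, RSAD2 and XAF1 were limited by their signal over background.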
